A study of Saccharomyces cerevisiae with 6 samples.

Results

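The mitochondrial ribosome of the budding yeast Saccharomyces cerevisiae makes the few proteins that the mitochondrial genome encodes, most of them core subunits of the respiratory chain and the ATP synthase. Its large subunit joins amino acids and holds the exit tunnel, and its small subunit reads the messenger RNA. Its ribosomal RNAs come from the mitochondrial genome, whereas nearly all of its proteins are encoded in the nucleus, made in the cytosol and imported. Some of these proteins have a counterpart in the bacterial ribosome, and others are found only in mitochondria. Their messenger RNAs are textbook targets of Puf3, an RNA-binding protein that recognises a short motif after the stop codon and, depending on growth conditions, promotes decay or translation near mitochondria.

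The genes were chosen by name: protein-coding genes whose standard symbol in the R64 reference begins with MRPL, MRPS, MRP or RSM and goes straight on to a digit. The rule found 67 genes among the 6931 loci of the deposited tables, on 14 chromosomes, and all 67 were tested. Of these, 38 encode proteins of the large subunit and 28 proteins of the small subunit, and 25 of the 66 have no bacterial counterpart (14 large, 11 small). MRP8 belongs to neither subunit: the reference annotation describes its product as a protein once thought to be mitoribosomal. The name of the group is thus used for the other 66. RSM22 is among these by its symbol, though it has no ribosomal family name in that annotation. MRP8 is counted in all values given for the 67 genes, and its own values are also given apart. Ribosomal proteins of mitochondria that carry other names fall outside the rule and are described as a separate list.

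RNA was sequenced from 6 samples of strain W303, a common laboratory background, in 3 groups of 2. The first group carried a GAL-PSD1 construct and lacked PDR3 (pdr3Δ GAL-PSD1). The second carried GAL-PSD1 in cells with PDR3 (GAL-PSD1), and the third was the wild-type control (WT). PSD1 codes for the inner membrane enzyme that turns phosphatidylserine into phosphatidylethanolamine, here placed under the galactose-inducible GAL promoter. PDR3 codes for a transcription factor that activates drug efflux genes. The series' title names the question, which is how cells respond to stress on mitochondrial protein import. All 6 samples were grown in 1% yeast extract, 2% peptone and 2% raffinose, and induction was with 2% galactose for 4 h. The labels mark the induction as plus or minus for every sample and do not say which samples received galactose. They also do not say whether the construct sat on a plasmid or in a chromosome.

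The targeted genes were read first. PDR3 had 3 and 9 counts in pdr3Δ GAL-PSD1 libraries, 2283 and 2245 in GAL-PSD1 libraries and 724 and 798 in WT libraries. PSD1 reached 9369.9 and 9070.9 CPM (counts scaled to library size) in pdr3Δ GAL-PSD1, 14465.8 and 16489 CPM in GAL-PSD1, and 1494.8 and 1318.8 CPM in WT. The galactokinase gene GAL1 had 101214 and 92225 counts in pdr3Δ GAL-PSD1, 72738 and 61306 in GAL-PSD1, and 484 and 230 in WT. The response to galactose and the response to PSD1 therefore cannot be told apart in the comparisons with WT, and PSD1 was itself lower in pdr3Δ GAL-PSD1 than in GAL-PSD1 (log2 fold change -0.75 ± 0.09, edgeR adjusted p = 0.000668). Library totals ran from 10220872 to 12315448 counts, and each mitoribosomal gene had between 218 and 5845 counts in each library. The labels do not state whether paired samples were separate cultures. The edgeR p-values thus rest on the spread between the 2 libraries within each of the 3 groups, fitted together. This spread may be technical.

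Nearly all of these genes carry the Puf3-type motif TGTANATA on the coding strand within 200 bases after the stop codon. A match was found for 65 of the 67 (97.0%), against 844 of 6002 protein-coding nuclear genes (14.1%) and 779 of the 5935 that are not among the 67 (13.1%). All 38 large subunit genes and 27 of 28 small subunit genes had one, and the genes without a match were RSM22 and MRP8. The first match began a median of 51 bases after the stop codon (range 8 to 139), and 61 of the 65 lay within 100 bases. The base at the N of the first match was A in 32 genes, T in 20, C in 12 and G in 1, and 13 genes held more than 1 match. A C stood 2 bases before the first match in 46 of the 65 (70.8%), against 26.0% of first matches in other genes. Matches are letters in the sequence and no measure of Puf3 binding, and PUF3 itself had 56.6 and 53.2 CPM in pdr3Δ GAL-PSD1, 61.1 and 62.5 CPM in GAL-PSD1 and 68.7 and 53.3 CPM in WT.

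For genes that later results turn on, the first match after the stop codon is shown with 6 bases on each side. It is read 5′ to 3′ on the coding strand from the RefSeq R64 genome, the motif in capitals. RSM19 holds 3 matches in all, and MRPS16 and MRPL28 hold 2 each. The first 6, 3 from each subunit, are among the genes that rose most in GAL-PSD1 cells, and the last 3 are among those that fell.
RSM19: atctagTGTATATAgatttc
MRPS16: atatgtTGTATATAtgtttt
MRPS12: acctttTGTAAATAgcaatg
MRPL25: taatcaTGTAAATAattttg
MRPL28: tcctgcTGTAAATAactgat
MRPL31: ttcatcTGTATATAgtttaa
RSM26: atatacTGTAAATAgtttta
RSM23: ttctcaTGTACATAtaaata
MRPL15: tttatcTGTAAATAgtgatc

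The 3 falling genes shown held the same motif as the rising genes shown, and the form with A at the N occurred in both. The genes without a match also went both ways, as RSM22 fell and MRP8 rose. The RSM19 stretch lies at chrXIV:695029-695048 on the minus strand, and its motif starts 10 bases after the stop codon. The MRPS12 stretch lies at chrXIV:694274-694293 on the same strand. RSM19 (YNR037C, chromosome XIV, 695052 to 695327) and MRPS12 (YNR036C, 694361 to 694822) are neighbours that run the same way with 229 bases between them.

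**Figure D1:**
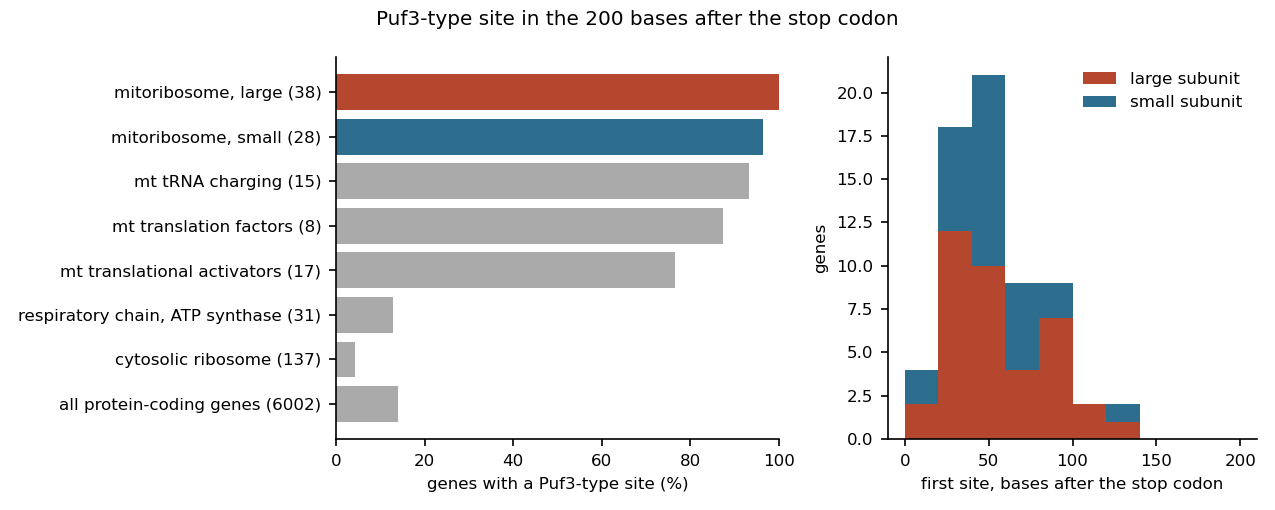
Left, share of genes in each group (number of genes in brackets) with the Puf3-type motif within 200 bases after the stop codon, in percent; right, distance in bases from the stop codon to the first match for the 65 genes that have one, stacked by subunit. Mitoribosomal, tRNA charging and translation factor genes stand above 87%, respiratory chain and cytosolic ribosome genes at 12.9% and 4.38%, and most matches start within 100 bases of the stop codon.

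The motif was also frequent among other genes of mitochondrial translation. It was present in 14 of 15 genes that charge mitochondrial transfer RNAs, 7 of 8 translation factors, all 14 mitoribosomal genes with other names (8 large, 6 small) and 13 of 17 translational activators and membrane insertion factors. It was present in 4 of 31 respiratory chain and ATP synthase genes (12.9%) and 6 of 137 cytosolic ribosomal protein genes (4.38%).

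The first comparison asked how the mitoribosomal genes respond to GAL-PSD1 in cells with PDR3. Most of them rose, by small amounts. Of 67 genes, 41 were higher (61.2%), where 27.9% of all 6171 loci tested were higher, and 6 were lower (8.96%), where 27.9% of all loci were lower. Calls rest on edgeR's quasi-likelihood test with Benjamini-Hochberg adjustment over all 6171 loci, at a threshold of 0.05. The median log2 fold change was 0.16 (range -0.24 to 0.72), against 0.006 over all loci. The 2 GAL-PSD1 libraries lay above both WT libraries for 52 of the genes (39.5% of all loci did so) and below both for 9 (38.4%).

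The small subunit held the largest single rise, that of RSM19. The large subunit genes MRPL25, MRPL28 and MRPL31 rose more than every other small subunit gene. Of its 28 genes, 20 rose and 3 fell, with a median of 0.23. RSM19, whose protein corresponds to bacterial S19 in the head of the subunit, had 122.9 and 124.8 CPM in pdr3Δ GAL-PSD1, 147.6 and 139.8 CPM in GAL-PSD1, and 88.5 and 86.2 CPM in WT. The 3 groups did not overlap, with GAL-PSD1 highest and WT lowest. RSM19 rose 1.65-fold in GAL-PSD1 against WT (log2 0.72 ± 0.05 SE, edgeR adjusted p = 1.56e-06, n = 2 per group). MRPS16 (YPL013C, chromosome XVI, 528985 to 529350), which encodes the counterpart of bacterial S16, had 211.8 and 217.6 CPM in pdr3Δ GAL-PSD1, 249.5 and 237.2 CPM in GAL-PSD1, and 172.1 and 166.7 CPM in WT. It rose by 0.52 ± 0.05 (edgeR adjusted p = 1.07e-05). MRPS12, the counterpart of S12 at the decoding centre, had 389.5 and 388.4 CPM in pdr3Δ GAL-PSD1, 442.3 and 429.1 CPM in GAL-PSD1, and 320.7 and 308.0 CPM in WT. It rose by 0.47 ± 0.05 (edgeR adjusted p = 1.5e-05). These 3 genes showed the same order of groups, with no overlap between any of them. MRP17, the counterpart of S6, rose by 0.48 ± 0.05, and RSM28, whose protein has no bacterial counterpart, rose by 0.40 ± 0.05.

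The small subunit also held the largest fall. RSM26 (YJR101W, chromosome X, 618234 to 619034), whose protein resembles superoxide dismutases, had 301.1 and 302.1 CPM in pdr3Δ GAL-PSD1, 271.5 and 273.3 CPM in GAL-PSD1, and 306.7 and 337.6 CPM in WT. It fell by 0.24 ± 0.05 in GAL-PSD1 against WT (log2 fold change -0.24, edgeR adjusted p = 0.00337), and its WT libraries stood further apart than those of the other groups. RSM22 (YKL155C, chromosome XI, 159456 to 161342), whose protein is related to methyltransferases, was the longest gene of the group and had no Puf3-type match. It had 160.8 and 151.5 CPM in pdr3Δ GAL-PSD1, 148.0 and 150.7 CPM in GAL-PSD1, and 172.1 and 169.3 CPM in WT, and fell by 0.19 ± 0.05 (edgeR adjusted p = 0.00778). RSM23, whose protein is the yeast relative of the human GTP-binding protein DAP3, had 311.7 and 307.7 CPM in pdr3Δ GAL-PSD1, 311.8 and 304.6 CPM in GAL-PSD1, and 337.5 and 347.5 CPM in WT. It fell by 0.15 ± 0.05 (edgeR adjusted p = 0.0161), and both groups with GAL-PSD1 lay below WT without overlap. The call of RSM22 was lost without GAL-PSD1 library 1 (edgeR adjusted p = 0.0593). That of RSM23 was lost without GAL-PSD1 library 2 (0.102) or WT library 2 (0.0736).

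All 3 small subunit genes that fell are grouped here with those without a bacterial counterpart. RSM22 is in that group by a fixed list, as the reference annotation gives it no ribosomal family name. Of the 17 small subunit genes with such a counterpart, 14 rose and 0 fell, with a median of 0.26. Of the 11 without one, 6 rose and 3 fell, with a median of 0.14. In the large subunit, 12 of 24 genes with a counterpart rose and 2 fell, with a median of 0.14. Of its 14 genes without one, 8 rose and 1 fell, with a median of 0.29. The medians of the 2 kinds thus stood in opposite order in the 2 subunits, and the difference between the kinds was not tested. The 5 small subunit genes with no call were MRPS35, MRP13, MRP4, MRPS5 and MRPS28, with log2 fold changes between -0.11 and 0.13.

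Large subunit genes followed with a median of 0.15, and 20 of 38 rose and 3 fell. The 5 largest rises were all in genes whose proteins have no bacterial counterpart. MRPL25 (YGR076C, chromosome VII, 637104 to 637577), which encodes mL59, had 127.4 and 123.2 CPM in pdr3Δ GAL-PSD1, 130.9 and 136.0 CPM in GAL-PSD1, and 85.1 and 90.7 CPM in WT. Both groups with GAL-PSD1 lay far above WT, and MRPL25 rose 1.52-fold in GAL-PSD1 (log2 0.60 ± 0.05, edgeR adjusted p = 8.22e-06). MRPL28 (YDR462W, chromosome IV, 1386073 to 1386516), which encodes mL40, had 151.7 and 144.9 CPM in pdr3Δ GAL-PSD1, 163.2 and 156.5 CPM in GAL-PSD1, and 108.7 and 106.9 CPM in WT. It rose by 0.57 ± 0.05 (edgeR adjusted p = 7.11e-06). MRPL31 (YKL138C, chromosome XI, 185286 to 185681), which encodes mL60, had 237.3 and 240.1 CPM in pdr3Δ GAL-PSD1, 263.0 and 263.3 CPM in GAL-PSD1, and 181.5 and 181.8 CPM in WT. It rose by 0.53 ± 0.04 (edgeR adjusted p = 4.15e-06), and replicates of each group differed by far less than the groups did. MRPL44, which encodes mL53, rose by 0.47 ± 0.05, and MRP49, which encodes mL61, rose by 0.38 ± 0.06.

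The 3 large subunit genes that fell did so by small amounts. MRPL15, whose protein is related to ribonuclease III, had 281.4 and 285.8 CPM in pdr3Δ GAL-PSD1, 253.8 and 256.9 CPM in GAL-PSD1, and 273.6 and 295.3 CPM in WT, and fell by 0.16 ± 0.05 (edgeR adjusted p = 0.0242). MRPL9, the counterpart of bacterial L3, fell by 0.14 ± 0.04 (0.0201), and MRPL10, the counterpart of L15, fell by 0.13 ± 0.04 (0.0318). Each of these 3 calls was lost with DESeq2 and in at least 1 fit that left out a library. MRPL9 overlaps the open reading frame YGR219W over 303 bases, and no source used here states whether reads were counted by strand. The 15 large subunit genes with no call ranged from -0.11 for MRPL17 to 0.25 for MRPL38. MRPL38, the counterpart of L14, had the fewest counts of the group and overlaps YKL169C over 366 of its 417 bases.

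**Figure D2:**
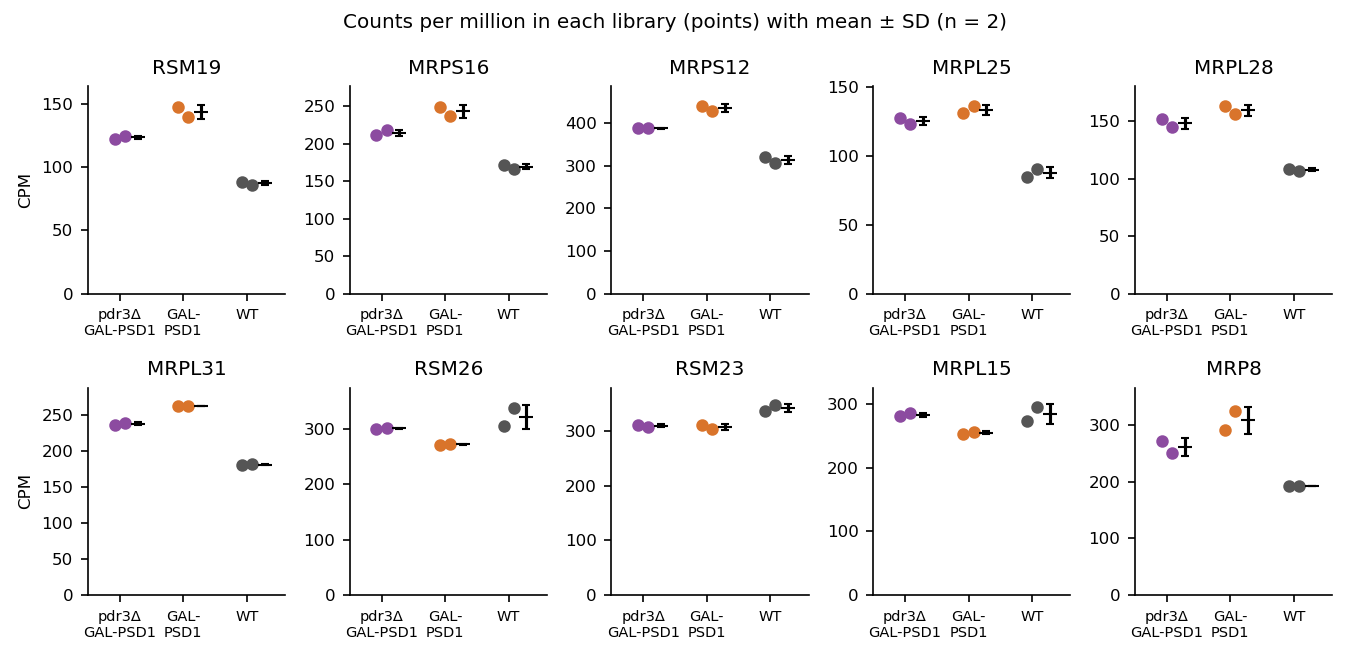
CPM of 10 genes in each library (points) with the mean ± SD of each group (n = 2), for pdr3Δ GAL-PSD1, GAL-PSD1 and WT. RSM19, MRPS16, MRPS12, MRPL25, MRPL28, MRPL31 and MRP8 lie above WT in both groups with GAL-PSD1, and RSM26, RSM23 and MRPL15 lie lower in GAL-PSD1 than the WT mean.

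**Figure D3:**
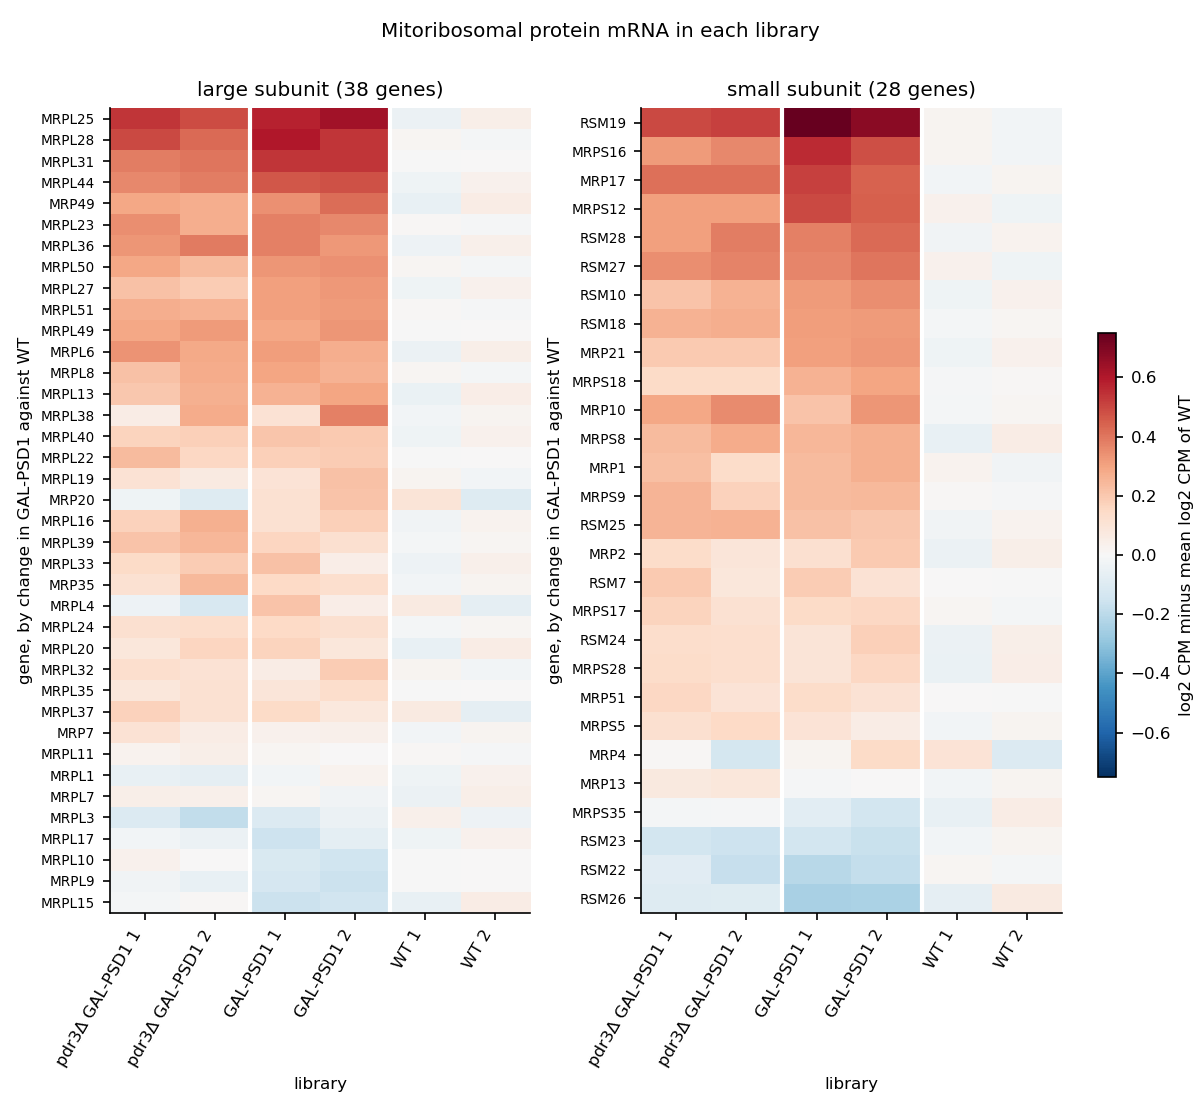
Log2 CPM of each of 66 mitoribosomal genes in each library minus the mean log2 CPM of the WT libraries (colour scale), in the column order pdr3Δ GAL-PSD1, GAL-PSD1 and WT and sorted by the change in GAL-PSD1 against WT. Red fills most of the GAL-PSD1 columns of both subunits from 0.72 for RSM19 downwards, and blue appears in the rows at the bottom down to -0.24 for RSM26.

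MRP8, which is no ribosomal protein, moved like the genes at the top of the list. It had 271.9 and 250.3 CPM in pdr3Δ GAL-PSD1, 291.0 and 324.7 CPM in GAL-PSD1, and 192.7 and 192.9 CPM in WT. It rose by 0.67 ± 0.06 in GAL-PSD1 against WT (edgeR adjusted p = 1.03e-05).

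The second comparison asked whether the deletion of PDR3 changes these genes while PSD1 is induced. Most showed no call. Of the 67 genes, 1 was higher in pdr3Δ GAL-PSD1 than in GAL-PSD1 (1.49%, where 11.8% of all loci were higher) and 6 were lower (8.96%, where 9.12% were lower), so the shares of members called were at or under those of all loci. The large subunit had 1 higher and 2 lower of 38, with a median log2 fold change of -0.01, and the small subunit had 0 higher and 3 lower of 28, with a median of -0.02. The libraries of the 2 groups stood apart with pdr3Δ GAL-PSD1 higher for 14 genes (32.2% of all loci did so) and lower for 24 (31.3%). The whole range ran from -0.24 for MRP8 to 0.15 for MRPL15, which had no call (edgeR adjusted p = 0.0597).

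The genes that were lower included some with the largest rises in GAL-PSD1, and both comparisons use the same GAL-PSD1 libraries. RSM19 fell by 0.21 ± 0.05 in pdr3Δ GAL-PSD1 against GAL-PSD1 (edgeR adjusted p = 0.0161), to the CPM values given above, which were still higher than in WT. MRPS16 fell by 0.18 ± 0.05 (edgeR adjusted p = 0.0275), and MRPS12 by 0.16 ± 0.05 (0.0332). MRPL31 fell by 0.14 ± 0.04 (0.046), and MRP8 by 0.24 ± 0.06 (0.0256). MRP20, whose protein corresponds to L23 at the exit of the tunnel, had 216.1 and 206.6 CPM in pdr3Δ GAL-PSD1, 238.7 and 255.4 CPM in GAL-PSD1, and 235.8 and 206.4 CPM in WT. It fell by 0.22 ± 0.07 (0.0408), and its WT libraries differed from each other by more than those of the other groups. MRPL10 had 310.2 and 303.1 CPM in pdr3Δ GAL-PSD1, 280.5 and 273.5 CPM in GAL-PSD1, and 302.2 and 303.8 CPM in WT, and rose by 0.15 ± 0.04 (0.044). Every one of these 7 calls was lost in at least 2 of the fits that left out 1 library of the groups compared, and DESeq2 made 0 calls higher and 2 lower.

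The third comparison asked what remains different from WT when PDR3 is absent. In pdr3Δ GAL-PSD1, 39 of 67 genes were higher than in WT (58.2%, where 19.6% of all loci were higher) and 1 was lower (1.49%, where 19.5% were lower). The large subunit had 20 higher and 0 lower of 38, with a median of 0.17. The small subunit had 18 higher and 1 lower of 28, with a median of 0.16. The median over all loci was 0.005. Both pdr3Δ GAL-PSD1 libraries lay above both WT libraries for 53 of the 67 genes (35.8% of all loci did so) and below both for 6 (33.6%). Because this comparison and the first share the WT libraries, their values are set side by side and no overlap is drawn from them.

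The 4 largest rises among mitoribosomal genes were in genes of up to 500 bases, from both subunits. MRPL25 rose by 0.51 ± 0.05 in pdr3Δ GAL-PSD1 against WT (edgeR adjusted p = 4.88e-05), beside 0.60 in GAL-PSD1 against WT. RSM19 rose by 0.50 ± 0.05 (3.86e-05), beside 0.72. MRPL28 rose by 0.46 ± 0.05 (5.89e-05), beside 0.57, and MRP17 by 0.41 ± 0.05 (0.000114), beside 0.48. In each pair the value with PDR3 was the larger by under 0.22 on the log2 scale, and of these 4 genes RSM19 alone had a call between pdr3Δ GAL-PSD1 and GAL-PSD1. MRPL31 rose by 0.39 ± 0.04, MRPL44 by 0.37 ± 0.05, RSM27, which encodes mS33, by 0.36 ± 0.05, RSM28 by 0.35 ± 0.05 and MRPS16 by 0.34 ± 0.05. MRP8 rose by 0.44 ± 0.06 (edgeR adjusted p = 0.000375). RSM23 was the 1 gene that fell, by 0.15 ± 0.05 (edgeR adjusted p = 0.0281), a call lost with DESeq2 and in 3 of the 6 fits that left out a library. RSM26 and MRPL15, which fell in GAL-PSD1, had log2 fold changes of -0.10 and -0.004 here with no call. Over the 3 comparisons, which share libraries, 17 of the 67 genes had no call. The matching number over all loci was not counted, so the 17 cannot be read as many or few. In GAL-PSD1 against WT, 20 of 67 genes and 2728 of 6171 loci had no call. Between pdr3Δ GAL-PSD1 and GAL-PSD1 these were 60 genes and 4880 loci, and in pdr3Δ GAL-PSD1 against WT 27 genes and 3756 loci.

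**Figure D4:**
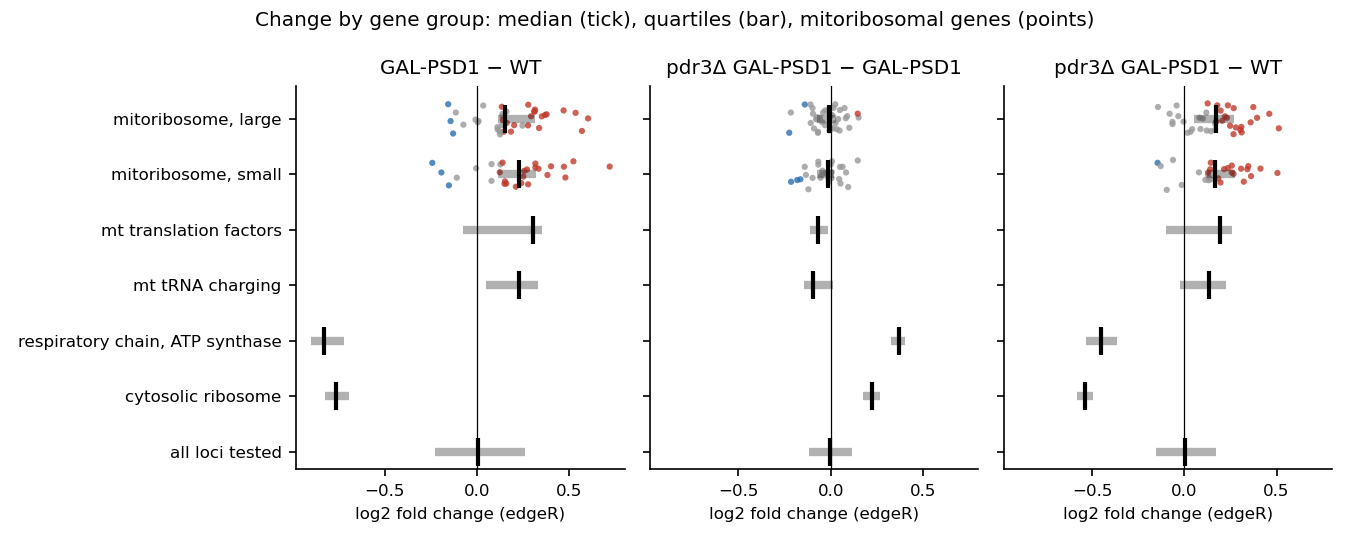
Log2 fold change in the 3 comparisons for mitoribosomal genes (points; red called higher, blue called lower, grey no call) and for other gene groups, with the median (tick) and the quartiles (grey bar) of each. Mitoribosomal medians lie at 0.15 to 0.23 in both comparisons with WT and close to 0 between pdr3Δ GAL-PSD1 and GAL-PSD1, whereas the medians of the cytosolic ribosome and the respiratory chain lie at -0.45 or lower against WT.

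Both subunits moved by similar amounts. Measured per length, the median level of large subunit genes was 447.7 and 449.8 FPKM in pdr3Δ GAL-PSD1, 450.5 and 472.0 FPKM in GAL-PSD1, and 391.5 and 395.8 FPKM in WT. Small subunit genes had medians of 470.6 and 459.7 FPKM in pdr3Δ GAL-PSD1, 476.6 and 479.5 FPKM in GAL-PSD1, and 423.5 and 419.6 FPKM in WT. For both subunits, both groups with GAL-PSD1 lay above WT without overlap. Summed counts of the large subunit were 1.110 and 1.117 times those of the small subunit in pdr3Δ GAL-PSD1, 1.099 and 1.097 times in GAL-PSD1, and 1.122 and 1.123 times in WT. The ratio was thus lowest in GAL-PSD1 and highest in WT, with no overlap, and the means of the groups differed by at most 0.0245. An exact two-sided permutation test of 2 against 2 libraries cannot give a p under 0.333, and gave that value for each pair of groups.

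Together the 66 mitoribosomal genes took 1.594% and 1.589% of all counts in pdr3Δ GAL-PSD1, 1.596% and 1.604% in GAL-PSD1, and 1.405% and 1.428% in WT. Such a share also moves with the rest of the library. Cytosolic ribosomal protein genes took 7.33% and 7.41% of counts in pdr3Δ GAL-PSD1, 6.40% and 6.09% in GAL-PSD1, and 10.4% and 10.8% in WT. The part of this shift in the mitoribosomal share was not tested. The median log2 fold change of all loci stayed under 0.03 in size with library totals, TMM or RLE scaling.

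Levels in the deposited FPKM differed widely among the genes. The highest was that of MRPL39, the counterpart of L33 and the shortest gene, with 2295.4 and 2309.8 FPKM in pdr3Δ GAL-PSD1, 2193.4 and 2148.7 FPKM in GAL-PSD1, and 1943.9 and 1938.6 FPKM in WT. The lowest were MRPL38, with 73.6 and 86.7 FPKM in pdr3Δ GAL-PSD1, 76.3 and 92.1 FPKM in GAL-PSD1 and 70.3 and 73.5 FPKM in WT, and RSM22, with 78.0 and 73.1 FPKM in pdr3Δ GAL-PSD1, 73.0 and 73.5 FPKM in GAL-PSD1 and 85.6 and 83.4 FPKM in WT. These 2 genes overlapped in pdr3Δ GAL-PSD1, while MRPL38 was above RSM22 in GAL-PSD1 and below it in WT. In WT the next genes below MRPL39 were MRPL33, with 1139.2 and 1194.1 FPKM, and MRPS12, with 992.2 and 952.0 FPKM. MRPS12 overlapped with RSM19, which had 971.2 and 963.0 FPKM. This is the order in FPKM, and counts over length put MRPS12 above MRPL39 in WT. MRPS12 had 320.7 and 308.0 CPM over 462 bases, and MRPL39 had 80.4 and 82.2 CPM over 213 bases.

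Among the mitoribosomal genes the change went with gene length. In GAL-PSD1 against WT, 20 of the 24 genes of up to 500 bases (locus length, start to end, introns included) rose and 0 fell, with a median log2 fold change of 0.33. Of 19 genes over 500 and up to 800 bases, MRP8 included, 14 rose and 1 fell (median 0.16). Of 22 genes over 800 and up to 1200 bases, 7 rose and 3 fell (median 0.08), and both genes over 1200 bases, RSM22 and RSM23, fell. Other loci with a single gene had medians of 0.05, 0.09, 0.04 and -0.04 in the same length classes, and those called higher and lower numbered 267 and 197 of 1084, 312 and 199 of 876, 393 and 328 of 1187, and 689 and 962 of 2865. The share called higher was thus 24.6% among other loci of up to 500 bases, against 83.3% among the mitoribosomal genes of that length.

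Across the 67 genes, locus length and log2 fold change had a Spearman correlation of -0.61 in GAL-PSD1 against WT (-0.56 across the 38 large subunit genes and -0.73 across the 28 small subunit genes). It was -0.11 across 6012 other loci with a single gene. In pdr3Δ GAL-PSD1 against WT it was -0.65 across the 67 genes and -0.10 across the other loci, and in pdr3Δ GAL-PSD1 against GAL-PSD1 it was 0.26 and 0.07. Level in WT also went with the change in GAL-PSD1 against WT. With WT CPM the Spearman correlation was -0.46 across the 67 genes and -0.35 across the other loci. With WT FPKM it was 0.43 and -0.24. Length and WT FPKM correlated at -0.71 across the 67 genes, so length and level were not separated. All are descriptions across genes, which share libraries and are not independent replicates, and the locus of MRPL19 also holds YNL184C.

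**Figure D5:**
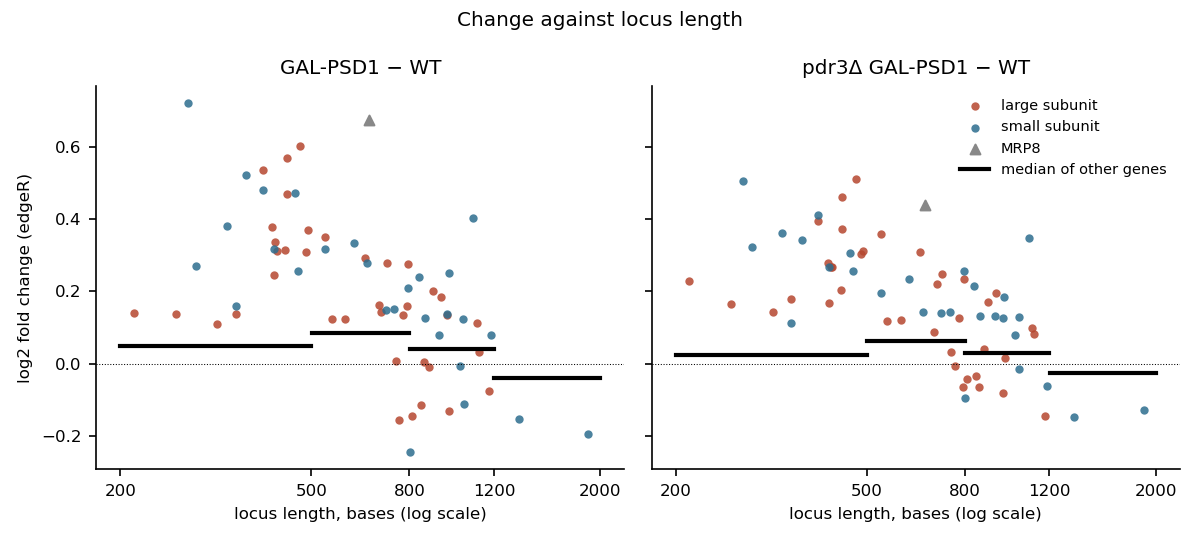
Log2 fold change of each mitoribosomal gene and of MRP8 against locus length in bases (log scale), for GAL-PSD1 against WT and pdr3Δ GAL-PSD1 against WT. Black bars are the medians of other single-gene loci in each length class. The points fall from left to right in both panels, and most genes under 500 bases lie above the black bar.

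Most mitoribosomal genes with other names were higher in GAL-PSD1 as well. In GAL-PSD1 against WT, 5 of 8 large subunit genes of this list rose and 1 fell, and 5 of 6 small subunit genes rose and 0 fell. Their medians were 0.35 and 0.22, and of all loci 27.9% were higher and 27.9% lower. IMG1, the counterpart of bacterial L19, rose by 0.48 ± 0.06, RTC6, the counterpart of L36, by 0.48 ± 0.05 and MRX14 by 0.46 ± 0.06. RML2, the counterpart of L2, had 357.6 and 344.1 CPM in pdr3Δ GAL-PSD1, 343.0 and 330.6 CPM in GAL-PSD1 and 415.7 and 404.8 CPM in WT. It was the 1 that fell, by 0.28 ± 0.05. In pdr3Δ GAL-PSD1 against WT, 5 of 8 were higher and 1 lower, and 3 of 6 higher and 0 lower. Of all loci, 19.6% were higher and 19.5% lower there. Between pdr3Δ GAL-PSD1 and GAL-PSD1 none of the 14 had a call in edgeR's test, and 4880 of all 6171 loci had none either.

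Genes that work with the mitochondrial ribosome are set here beside the 27.9% of all loci that were higher and the 27.9% that were lower. Of 8 translation factors, 5 rose and 2 fell in GAL-PSD1 against WT. AIM23, which encodes initiation factor 3, rose by 0.58 ± 0.06, with 77.7 and 73.3 CPM in pdr3Δ GAL-PSD1, 89.5 and 87.6 CPM in GAL-PSD1 and 59.4 and 58.9 CPM in WT. RRF1, the ribosome recycling factor gene, had 117.1 and 117.5 CPM in pdr3Δ GAL-PSD1, 129.5 and 143.6 CPM in GAL-PSD1 and 109.1 and 101.0 CPM in WT. MEF2, which encodes an elongation factor G relative that acts in recycling, fell by 1.01 ± 0.06, with 95.9 and 86.7 CPM in pdr3Δ GAL-PSD1, 75.9 and 72.8 CPM in GAL-PSD1 and 152.0 and 146.9 CPM in WT. RRF1 rose by 0.38 ± 0.06, so both genes of recycling moved in opposite directions. TUF1, the elongation factor Tu gene, fell by 0.41 ± 0.05. Of 15 transfer RNA charging genes, 8 rose and 2 fell, led by the lysyl-tRNA synthetase gene MSK1 (0.58 ± 0.05) and by PET112 (0.52 ± 0.05) and HER2 (0.46 ± 0.06), both of the amidotransferase that makes glutaminyl-tRNA.

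The other lists stand beside the same 27.9% of all loci in each direction. Of 6 assembly and ribosomal RNA modification genes, 1 rose and 2 fell: MRM2, a methyltransferase gene for the large ribosomal RNA, rose by 0.40 ± 0.07, MRM1, another such gene, fell by 0.34 ± 0.05, and GEP3 fell by 0.26 ± 0.05. Of 4 genes of mitochondrial transcription and RNA turnover, 0 rose and 1 fell, the RNA polymerase gene RPO41 (-0.18 ± 0.06). Its call was lost without GAL-PSD1 library 1 (edgeR adjusted p = 0.219), GAL-PSD1 library 2 (0.0683) or WT library 1 (0.266), the last with a log2 fold change of -0.09, and on either FPKM scale. Of 17 translational activators and insertion factors, 4 rose and 7 fell, among them AEP2 (-0.56 ± 0.05) and PET309 (-0.52 ± 0.06), which act on the ATP9 and COX1 messenger RNAs. One of the rising activators is a merged locus of COQ9, YLR202C and MSS51 (0.42), whose counts cannot be assigned to MSS51. Of 10 genes for regulators that have been tied to ribosomal or mitochondrial genes, 4 rose and 3 fell, and the rise at IFH1 (0.25) is that of a locus merged with YLR222C-A. HAP5 rose by 0.74 ± 0.07 and HAP4 fell by 0.51 ± 0.05, and their products belong to the same CCAAT-binding complex.

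The cytosolic ribosome and the respiratory chain, the partners on either side of mitochondrial translation, went the other way. Of 137 cytosolic ribosomal protein genes, 135 fell and 1 rose in GAL-PSD1 against WT, with a median of -0.76. Of 31 respiratory chain and ATP synthase genes tested of 32, 30 fell and 1 rose, with a median of -0.83. Between pdr3Δ GAL-PSD1 and GAL-PSD1, 99 cytosolic ribosomal genes were higher and 1 lower (median 0.22), and 30 respiratory genes were higher and 1 lower (median 0.37). The 67 genes chosen by name had 1 higher and 6 lower, MRP8 among the lower. Against WT, pdr3Δ GAL-PSD1 had medians of -0.54 for the cytosolic ribosome and -0.45 for the respiratory genes.

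Promoter motifs were counted on both strands in the 300 bases before the start codon. The PAC motif GATGAG stood in 12 of the 67 genes (17.9%, against 19.1% of 6002 protein-coding genes) and RRPE (AAAATTTT) in 3 (4.48% against 9.41%). CCAAT stood in 25 (37.3% against 41.8%) and the stress element AGGGG in 8, MRP8 included (11.9% against 22.2%). None of the motifs was thus more frequent than in all genes by over 1 percentage point. CCAAT stood in 30 of 31 respiratory genes (96.8%). The element CCGCGG, a form of the sequence that Pdr1 and Pdr3 bind, stood in 1 of the 67 (1.49%, against 1.37% of all genes), that of MRPL36, shown here because PDR3 is the deleted factor. It begins 294 bases before the start codon, in the stretch chrII:484784-484803 on the minus strand of R64, with the motif in capitals.
MRPL36: ctaaaaCCGCGGaaacaatg

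MRPL36, which encodes the counterpart of L31, had 251.3 and 261.0 CPM in pdr3Δ GAL-PSD1, 259.1 and 250.3 CPM in GAL-PSD1, and 194.7 and 204.5 CPM in WT. The pdr3Δ GAL-PSD1 and GAL-PSD1 libraries overlapped and lay above WT. The log2 fold change was 0.01 ± 0.05 between pdr3Δ GAL-PSD1 and GAL-PSD1 (edgeR adjusted p = 0.931), 0.35 ± 0.05 in GAL-PSD1 against WT and 0.36 ± 0.05 in pdr3Δ GAL-PSD1 against WT.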

How the data were processed

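Per the labels' protocols, W303 RNA was purified on RNeasy columns and Illumina TruSeq libraries were prepared. The submitters' processing notes list Cufflinks 2.2.0, Cuffdiff 2.2.0, SAMtools 0.1.18, TopHat2 2.0.9 and Bowtie2 2.1.0 and the sacCer3 (R64) genome, with no role for each. No source used here names the counting tool. The authors deposited whole-number counts per locus, not normalized, and FPKM values for the same 6931 loci, per the file headers and values. Start and end of all 67 genes equalled those in the R64 reference, from which symbols and sequences were read. Subunits and the presence of a bacterial counterpart followed symbols and fixed lists. Family names in the reference matched these wherever given, and RSM22 and MRP8 had none. MRPL19 shares its locus with YNL184C.

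Samples were grouped by the labels' treatment. The test was edgeR 4.0.16 under R 4.3.3, on the deposited counts (TMM, expression filter by group, quasi-likelihood test over all 6 libraries), which left 6171 loci, 3 residual degrees of freedom and a biological coefficient of variation of 4.66%. Fold changes are log2 ± SE, the SE being the absolute log2 fold change over the square root of the F statistic. Replicates differed by more than counting noise (chi-square per degree of freedom of 2.99 to 7.07). Alternatives were DESeq2 1.42.0, limma 3.58.1 on log2(FPKM + 1) and log2(FPKM + 0.1), other scalings and filters, fits of the compared groups alone, a replicate block and each library left out.

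The members, gene lists and motifs were chosen with earlier results of these data known. Named are, per comparison and subunit, the 5 called genes with the largest rises and falls, those called against their subunit's direction, MRP8, and up to 3 called genes per list by smallest p; MRPL38, MRPL39, MRPL33, PUF3 and RML2 were named after their values were seen. MRP35, placed in the large subunit here, follows the reference annotation (bL35m).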

Additional observations from a re-analysis of the deposited data

How the results depend on the processing

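Over 15 alternatives, 144 of 180 counts and medians held, and of 1710 values of named genes 1559 kept direction and call, 151 lost the call and 0 reversed; 31 of 114 named-gene results lost their call at least once. The counts of genes higher than in WT ranged, over fits that left out 1 library, from 34 to 39 in GAL-PSD1 and from 32 to 35 in pdr3Δ GAL-PSD1. RSM26 kept its fall in GAL-PSD1 against WT in every alternative run, whereas the other falls and the calls between pdr3Δ GAL-PSD1 and GAL-PSD1 each lost their call in at least 1, and the cause was not tested. Genes higher in pdr3Δ GAL-PSD1 than in GAL-PSD1 numbered 1 as reported, 0 with DESeq2, RLE size factors, either FPKM scale or no filter, 2 with library totals or the replicate block, 3 with only the 2 groups, and 0 to 3 with a library left out. Genes lower there numbered 6 as reported, 2 with DESeq2 and with either FPKM scale, and 0 to 7 with a library left out. Genes lower in GAL-PSD1 than in WT numbered 6 as reported, 3 with DESeq2 and 2 to 6 with a library left out (2 without either GAL-PSD1 library or without WT library 2). Genes lower in pdr3Δ GAL-PSD1 than in WT numbered 1 as reported, 0 with DESeq2, library totals or only the 2 groups, 2 with RLE size factors or at least 50 counts in 2 libraries, and 0 to 2 with a library left out. With a library left out, the median log2 fold change ranged from 0.15 to 0.19 (large) and 0.19 to 0.23 (small) in GAL-PSD1 against WT, and from 0.15 to 0.20 (large) in pdr3Δ GAL-PSD1 against WT. Same-numbered libraries deviated with correlations of 0.04, 0.19 and -0.02 over loci. Such values cannot show whether same-numbered samples shared a day or batch, which the labels do not name. With the replicate block the other counts were 42 and 6 in GAL-PSD1 against WT and 6 lower in pdr3Δ GAL-PSD1 against GAL-PSD1. They were 39 and 1 in pdr3Δ GAL-PSD1 against WT. The block gave 3491, 1393 and 2483 calls over all loci in the 3 comparisons. Over all loci, the calls in the 3 comparisons numbered 3443, 1291 and 2415 with edgeR and 2756, 805 and 1784 with DESeq2, and between pdr3Δ GAL-PSD1 and GAL-PSD1 from 233 to 1533 with a library left out. Where a group kept 1 library, that library was assumed to vary like the others. MRPL38 had the fewest counts (from 218) and an SE of 0.12 in GAL-PSD1 against WT. It overlaps YKL169C, and the cause of its low counts was not tested.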

Other observations

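Beyond the mitoribosomal genes, other genes with a Puf3-type match within 200 bases after the stop codon were higher in GAL-PSD1 than in WT for 280 of 757 tested (37.0%) and lower for 195 (25.8%), with a median log2 fold change of 0.05. Other genes without a match were higher for 1321 of 4759 (27.8%) and lower for 1409 (29.6%), with a median of -0.002. In pdr3Δ GAL-PSD1 against WT the shares higher were 28.1% with a match and 19.0% without, and in pdr3Δ GAL-PSD1 against GAL-PSD1 they were 11.1% and 12.7%. The difference was not tested. The 757 genes include mitoribosomal genes with other names and other genes of mitochondrial translation, whose lists are given above.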
